A study of Mus musculus with 4 samples.

Results

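Receptors for the slow neuromodulators were examined in RNA that was co-precipitated with the RNA-binding protein CPEB2 from mouse brain. They were taken by gene symbol, as non-control spots of receptors for serotonin, dopamine, noradrenaline, acetylcholine, opioids, cannabinoids, adenosine, histamine, somatostatin or neuropeptide Y. They comprised 71 of the 24185 gene symbols on the array, or 113 of 59305 spots and 95 distinct probes. The neuropeptide Y receptor gene with the older symbol Ppyr1 fell outside the symbols used and was left out. The lysate came from cortex and hippocampus of male C57BL/6 mice aged 8 weeks, and 4 one-color arrays were hybridized, 2 per antibody (CPEB2 IgG or control IgG). The lysate was divided between both antibodies and kept with them for 3 h, and RNA immunoprecipitation (RIP) was done in 2 independent experiments, so that the arrays formed 2 pairs. RIP recovers the RNA bound to a protein with the antibody against it, and non-specific IgG gives the background that the beads and the antibody carry. No array of the unprecipitated lysate was analysed here. Every fold change therefore compares the RNA recovered with CPEB2 IgG with that recovered with control IgG. Within an experiment both antibodies received the same lysate of whole tissue, which does not show which cells an RNA came from. Titles and protocol name CPEB2, whereas 1 description field of these samples names CPEB3, and the arrays are called CPEB2 IgG here.

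Most neuromodulator receptors are G protein-coupled. Receptors coupled to Gs raise cyclic AMP, those coupled to Gi/o lower it and gate ion channels, and those coupled to Gq/11 act through phospholipase C and calcium, whereas nicotinic acetylcholine receptors and the Htr3 serotonin receptors are ligand-gated ion channels. In cortex and hippocampus they set excitability, transmitter release and the threshold for synaptic plasticity. CPEB proteins bind the cytoplasmic polyadenylation element (CPE), a short uridine-rich motif of the 3′ untranslated region, and control the translation of such mRNAs.

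No spot was saturated, and 68.4% to 74.1% of an array's spots were well above background. The median signal of the receptor spots lay between 53.2 and 62.4 on the 4 arrays, where the median over all spots lay between 59.0 and 76.5. Signals are fluorescence intensities and depend on the probe, so a brighter signal in one gene than in another is not read as more mRNA. The mRNA of the targeted protein, Cpeb2, had signals of 2410 and 1877 with CPEB2 IgG against 299 and 297 with control IgG, a log2 fold change of 2.89 (limma, adjusted p = 0.00543). Of the cell type markers, all 6 general neuronal and all 6 excitatory neuronal genes listed were above background on at least 2 arrays. Each antibody had its own positions on the single slide, so position and antibody cannot be told apart. Since each antibody had 2 arrays, the smallest two-sided p of an exact permutation test that ignores the pairs is 0.333, and one that keeps the pairs cannot go lower. Single genes were therefore called with limma, which borrows the spread of all genes (adjusted p under 0.05). The number of mice behind each of the 2 independent experiments was not given in the sources used here, and the p-values measure the spread between these arrays.

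Of the 71 receptor genes, 61 had a probe above background on at least 2 of the 4 arrays and were tested, and 19 of them (31.1%) were higher with CPEB2 IgG, against 21.2% of the 19698 genes tested in all. A single receptor gene (1.64%) was lower, against 20.4% of all genes. The 10 that did not reach this level were Adra1a, Chrm5, Chrna3, Chrna5, Chrnb1, Chrnb3, Chrnd, Htr2b, Htr3b and Npy6r. The probe used was above background on all 4 arrays for 57 of the 61 and for 18 of the 19, the exception being Htr5a. The median log2 fold change of the 61 was 0.35, whereas the median of all genes tested was -0.11. Both CPEB2 IgG arrays were above both control IgG arrays for 30 of the 61 (49.2%; 33.7% of all genes) and below both for 10 (16.4%; 38.2% of all genes). The 2 experiments gave unlike signs for 18 of the 61 (29.5%; 20.3% of all genes). These counts and the median describe a list chosen with earlier results of these data known, and no test of the list was made.

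**Figure D1:**
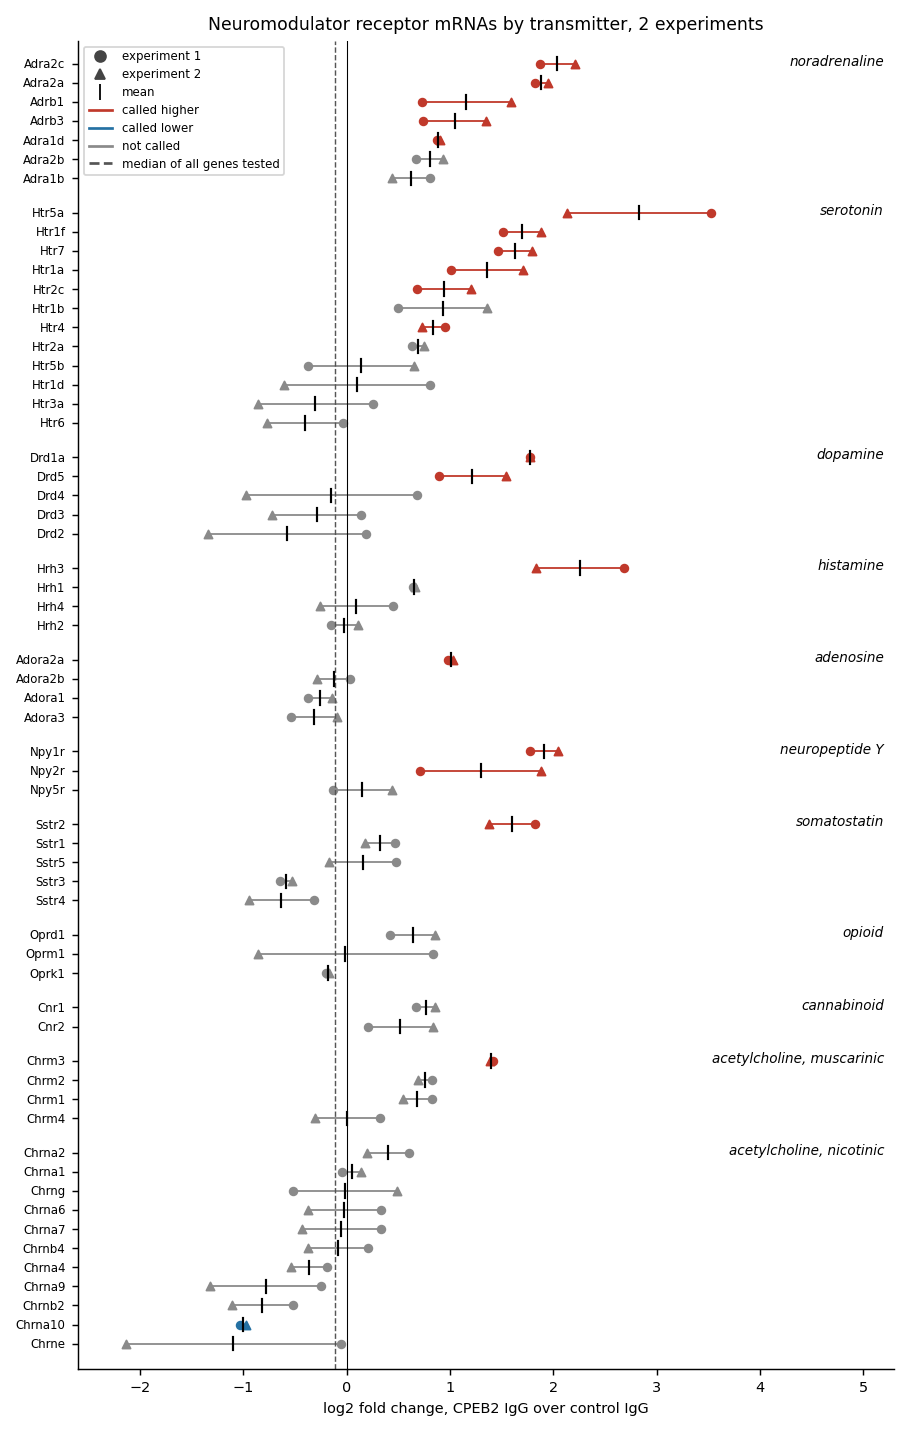
Log2 fold change of CPEB2 IgG over control IgG (x axis) for 60 of the 61 receptor genes tested, grouped by transmitter; circles and triangles are experiments 1 and 2, the black bar is their mean, and color gives the limma call. The 7 noradrenaline receptors drawn lie above 0, and of the 11 nicotinic subunits 2 have a mean above 0 and none was called higher.

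Noradrenaline receptors gave 5 of 8 called higher (62.5%; 21.2% of all genes), and their median log2 fold change was 0.97. Adra2c, an alpha adrenoceptor coupled to Gi/o that also acts as an autoreceptor on noradrenergic terminals, had signals of 5154 and 5065 with CPEB2 IgG against 1493 and 1117 with control IgG. Both antibody groups were tight and well apart, with a log2 fold change of 2.04 ± 0.24 (SE; limma, adjusted p = 0.00627). Its close relative Adra2a, the alpha adrenoceptor that prefrontal circuits use for working memory, had signals of 3114 and 3287 against 932 and 869, a log2 fold change of 1.88 ± 0.23 (adjusted p = 0.00653). The probes of Adra2c and Adra2a lie on chr5:35624269-35624328 and chr19:54123363-54123422 of mm9.

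Among the beta adrenoceptors, which couple to Gs, Adrb1 is the main cortical form and had signals of 4521 and 5879 with CPEB2 IgG against 2890 and 1991 with control IgG. The groups did not overlap, but the log2 fold change was 0.73 in experiment 1 and 1.59 in experiment 2 (mean 1.16, adjusted p = 0.0378). Adrb3 had signals of 289 and 448 against 183 and 178 (log2 fold change 1.05, adjusted p = 0.0360). The alpha adrenoceptor Adra1d, coupled to Gq/11, had signals of 243 and 301 against 141 and 164 (log2 fold change 0.89, adjusted p = 0.0366). Adra1b, also coupled to Gq/11, was not called. Its signals were 467 and 1155 with CPEB2 IgG against 284 and 869 with control IgG, so that experiment 2 was brighter than experiment 1 with both antibodies and the groups overlapped (log2 fold change 0.62, adjusted p = 0.106). Adra2b was not called either, and Adra1a was not tested.

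Serotonin receptors had 6 of 12 called higher (50%; 21.2% of all genes) and a median of 0.88. Htr7, a Gs-coupled receptor of hippocampus and thalamus, had signals of 1100 and 1368 with CPEB2 IgG against 422 and 402 with control IgG, a log2 fold change of 1.63 ± 0.24 (adjusted p = 0.00891). Htr1f, coupled to Gi/o, had 334 and 339 against 124 and 93.9, a log2 fold change of 1.69 ± 0.24 (adjusted p = 0.00848). In both genes the 2 arrays of an antibody lay far closer to each other than to the other antibody.

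Htr5a, a further Gi/o-coupled receptor of neurons, had dim signals of 91.7 and 136 with CPEB2 IgG against 8.46 and 31.7 with control IgG. Only 1 of its 2 control IgG arrays was well above background, so no size is read from its log2 fold change, which was 2.82 as processed and 0.94 after normexp background correction. It was called higher (adjusted p = 0.00799), but not without a filter on dim probes (adjusted p = 0.0576). Htr1a, the Gi/o-coupled autoreceptor of serotonin neurons that pyramidal cells also carry, had 66.6 and 141 against 34.96 and 44.0 (log2 fold change 1.36, adjusted p = 0.0200), and its adjusted p was 0.0548 without the experiment as a block. Htr4, coupled to Gs, had 360 and 377 against 197 and 232 (log2 fold change 0.84, adjusted p = 0.0455).

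Of the Gq/11-coupled pair of serotonin receptors tested, Htr2c had signals of 1143 and 1659 with CPEB2 IgG against 755 and 735 with control IgG (log2 fold change 0.94, adjusted p = 0.0430). Htr2a, the cortical target of hallucinogens, had 1260 and 1435 against 862 and 870, also without overlap (log2 fold change 0.69, adjusted p = 0.0711; 0.0476 without the block). Htr2c is strongly expressed in choroid plexus, so markers of that tissue were read beside it. Of these 6 markers 2 were called higher and none lower, but without the block none was called, and Ttr, its defining secreted protein, had signals of 6966 and 291 with CPEB2 IgG against 11608 and 289 with control IgG. Their summed scaled signal ranged from 2.82 to 21.5 with CPEB2 IgG and from 2.21 to 29.97 with control IgG, and was high in experiment 1 of both antibodies (2.12 to 4.86 against 1.53 to 3.77 without Ttr), whereas Htr2c was brighter in experiment 2 of CPEB2 IgG. The part of choroid plexus RNA in the Htr2c value was not tested. Htr1b, Htr1d, Htr3a, Htr5b and Htr6 were not called, and Htr2b and Htr3b were not tested.

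**Figure D2:**
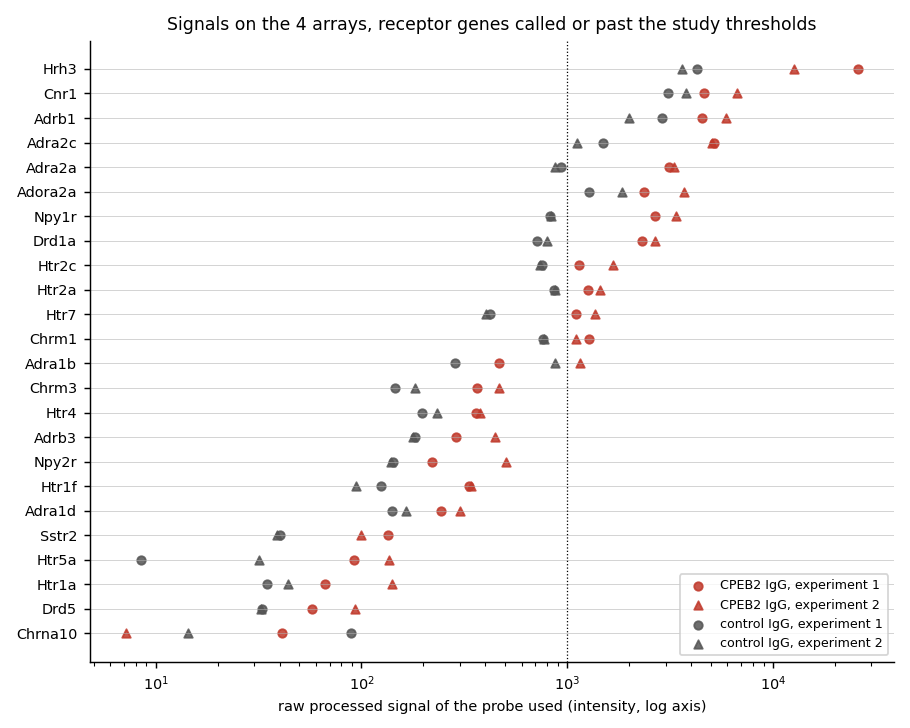
Raw processed signal (x axis, intensity on a log scale) of the probe used for each receptor gene that was called or passed the study thresholds, on the 4 arrays; red is CPEB2 IgG, gray is control IgG, circles and triangles are experiments 1 and 2, and the dotted line marks a signal of 1000. For Hrh3 the CPEB2 IgG signals of 25780 and 12646 lie above the control IgG signals of 4245 and 3603, and Chrna10 is the one gene with a control IgG signal above that of CPEB2 IgG in each experiment.

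The dopamine receptors called were of one family. Both receptors that couple to Gs were called higher (40% of the 5 tested; 21.2% of all genes) and none of the Gi/o-coupled Drd2, Drd3 and Drd4 was called. Drd1a (current symbol Drd1), the main Gs-coupled dopamine receptor of striatum and cortex, had signals of 2294 and 2678 with CPEB2 IgG against 710 and 796 with control IgG. Each experiment gave a log2 fold change of 1.77 (SE 0.23, adjusted p = 0.00699). Drd5, the second Gs-coupled form, which hippocampal pyramidal neurons carry, had dimmer signals of 57.3 and 92.7 against 32.7 and 32.5 (log2 fold change 1.21, adjusted p = 0.0253). The difference between the 2 families was not tested.

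Adenosine receptors gave 1 of 4 called, higher, a share near that of all genes (25%; 21.2% of all genes). Adora2a, the Gs-coupled receptor on which caffeine acts in striatum, had signals of 2361 and 3695 with CPEB2 IgG against 1268 and 1837 with control IgG, a log2 fold change of 1.01 ± 0.23 (adjusted p = 0.0261). The 4 values did not overlap between antibodies, but the lowest CPEB2 IgG and the highest control IgG values lay close, and without the block the adjusted p was 0.0718. Adora1, the Gi/o-coupled adenosine receptor that restrains glutamate release, had signals of 4026 and 4337 against 5516 and 4856 (log2 fold change -0.26, 95% confidence interval -0.87 to 0.36). Adora2b and Adora3 were not called.

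Drd1a and Adora2a are markers of striatal projection neurons, which the labelled tissue does not name, so 6 other markers of these cells were read with them. Of the 6, 2 were called higher, among them Tac1, and Rgs9 was called lower, and their summed scaled signal was 229 to 234 with CPEB2 IgG against 160 to 175 with control IgG. Without Ppp1r1b, which held 47.3% to 59.3% of these sums, it was 95.2 to 119 against 79.6 to 92.1. The part of striatal RNA in these 2 receptor values was not tested.

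Histamine receptors gave 1 of 4 called, higher, again near the share of all genes (25%; 21.2% of all genes). Hrh3, a Gi/o-coupled receptor that holds back the release of histamine and other transmitters from terminals, had signals of 25780 and 12646 with CPEB2 IgG against 4245 and 3603 with control IgG. Its signal thus rose by a log2 fold change of 2.26 ± 0.30 (adjusted p = 0.00739), and although the pair of CPEB2 IgG arrays differed by more than the pair of control arrays, the lower CPEB2 IgG signal was still far above the higher control. Hrh1, coupled to Gq/11, had 467 and 457 against 316 and 293 and was not called (log2 fold change 0.65, adjusted p = 0.0798; 0.0479 without the block). Hrh2 and Hrh4 were not called.

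Receptors for neuropeptides gave mixed counts. For neuropeptide Y, 2 of 3 were called higher (66.7%; 21.2% of all genes). Npy1r, the postsynaptic Gi/o-coupled form, had signals of 2673 and 3357 with CPEB2 IgG against 826 and 830 with control IgG (log2 fold change 1.91 ± 0.24, adjusted p = 0.00662). Npy2r, the presynaptic form, had 221 and 505 against 143 and 140, with a log2 fold change of 0.71 in experiment 1 and 1.88 in experiment 2 (mean 1.29, adjusted p = 0.0424). The spread of Npy2r came from the CPEB2 IgG arrays, and without the block the adjusted p was 0.0678.

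For somatostatin, Sstr2 was the single receptor called of 5 (20%; 21.2% of all genes). It had signals of 135 and 99.6 against 40.3 and 38.9 (log2 fold change 1.60 ± 0.25, adjusted p = 0.0101). Sstr5 overlapped between antibodies, with 7970 and 6131 against 6075 and 7011 (log2 fold change 0.15, 95% confidence interval -0.57 to 0.87). Sstr1, Sstr3 and Sstr4 were not called. None of the 3 opioid receptors was called. Oprm1, the mu opioid receptor and target of morphine, had 13050 and 8619 with CPEB2 IgG against 7732 and 15941 with control IgG, so that the direction turned between the experiments (log2 fold change 0.84 and -0.86). Its 95% confidence interval of -1.21 to 1.18 does not exclude a 2-fold difference either way. The array annotation places the 4 Oprm1 probes on the minus strand of mm9, whereas RefSeq has the gene on the plus strand of GRCm38.p6, and the other 68 probes with a RefSeq strand carried the same strand in both.

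Neither cannabinoid receptor was called. Cnr1, the presynaptic receptor for endocannabinoids that dampens transmitter release in hippocampus, had signals of 4608 and 6683 with CPEB2 IgG against 3070 and 3755 with control IgG. The groups did not overlap and both experiments were above 0, with a log2 fold change of 0.76 and a 95% confidence interval of 0.15 to 1.37, but the adjusted p was 0.0565. Cnr2 was not called.

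The acetylcholine receptors differed in their counts. Of 4 muscarinic, G protein-coupled receptors tested, Chrm3 was called higher (25%; 21.2% of all genes). It had signals of 365 and 465 against 145 and 181 (log2 fold change 1.40 ± 0.23, adjusted p = 0.0112). Chrm1, the main Gq/11-coupled muscarinic receptor of pyramidal neurons, had 1278 and 1101 against 762 and 770 without overlap and was not called (log2 fold change 0.68, adjusted p = 0.0787). The other pair, Chrm2 and Chrm4, was not called, and Chrm5 was not tested.

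Of 11 nicotinic subunits tested, none was called higher (21.2% of all genes) and the median was -0.09. Chrna10, a subunit best known from the cochlea, was called lower on signals of 41.0 and 7.21 with CPEB2 IgG against 89.0 and 14.4 with control IgG. Only experiment 1 was above background with either antibody, the groups overlapped, and the call (log2 fold change -1.004, adjusted p = 0.0263) rested on the block, with an adjusted p of 0.537 without it. Chrnb2, part of the main high-affinity nicotinic receptor of brain, had 834 and 543 against 1271 and 1194 (log2 fold change -0.82, adjusted p = 0.0663). The groups of Chrnb2 did not overlap. The subunits Chrna1, Chrna2, Chrna4, Chrna6, Chrna7, Chrna9, Chrnb4, Chrne and Chrng were not called. Where these had a dimmer second probe, which was not used, its log2 fold change was -1.49 for Chrna9 and -0.15 for Chrna4. It was 0.88 for Chrna7 and 1.39 for Chrna1. The Chrna9 probe used gave -0.78.

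Sorted by coupling, all 19 receptors called higher were among the 49 G protein-coupled genes tested, whose median log2 fold change was 0.68. The 12 channel subunits, nicotinic receptors and Htr3a, had a median of -0.20 and 1 call, lower. Among the G protein-coupled genes, 7 of 11 coupled to Gs, 9 of 31 coupled to Gi/o and 3 of 7 coupled to Gq/11 were called higher (63.6%, 29.0% and 42.9%, against 21.2% of all genes), with medians of 1.01, 0.32 and 0.69. Of the channel genes 6 of 18, and of the G protein-coupled genes 4 of 53, were not detected well enough to test. The groups also differed in their probes. The median G and C content of the probe used was 36.7% for Gs and for Gq/11, 41.7% for Gi/o and 43.3% for the channel subunits. The median of the brightest signal was 377 for Gs, 1155 for Gq/11, 213 for Gi/o and 125 for the channel subunits. The difference between the coupling groups was not tested, nor was the part of base content and brightness in it.

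**Figure D3:**
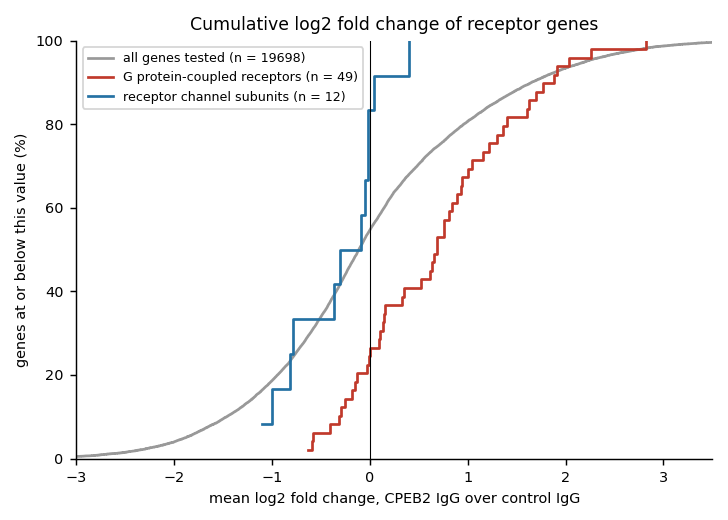
Cumulative share of genes (y axis, percent) by mean log2 fold change of CPEB2 IgG over control IgG (x axis) for the 49 G protein-coupled receptor genes, the 12 channel subunits and the 19698 genes tested in all. The curve of the G protein-coupled genes (median 0.68) runs to the right of that of all genes (median -0.11) over most of its length, and that of the channel subunits ends at 0.40.

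Under the thresholds that the study set, a raw signal over 1000 and more than 1.5-fold enrichment, 13 receptor genes passed. The signal was here required of at least 1 CPEB2 IgG array and the enrichment of the mean of both experiments, and the study's further condition of a CPE was not applied. For 12 of the 13 the probe used was over 1000 on both CPEB2 IgG arrays, and Adra1b was so only in experiment 2. With the fold change required in each experiment 11 passed, a count given without that of all genes. The 13 that passed by the mean fold change were 72.2% of the 18 receptor genes with such a signal, against 47.7% of the 7033 genes of all kinds. The signal filter looks only at CPEB2 IgG arrays, so it admits genes through the group where they are high. Npy1r, Htr7 and Drd1a, for example, were under 1000 on both control IgG arrays. These shares are therefore descriptions and no support for enrichment, and the mirrored filter has the same limit for control IgG. The 13 were Adora2a, Adra1b, Adra2a, Adra2c, Adrb1, Chrm1, Cnr1, Drd1a, Hrh3, Htr2a, Htr2c, Htr7 and Npy1r, of which 9 were also called by limma and Adra1b, Chrm1, Cnr1 and Htr2a were not. With the thresholds mirrored toward control IgG, 2 of 11 receptor genes passed (18.2%; 41.3% of all genes), namely Sstr3 and Chrnb2. The other 10 genes called higher by limma, among them Sstr2, Htr1f and Chrm3, lay below a signal of 1000.

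Of the 19 receptor genes called higher, 8 kept the call in each of the 17 other ways of processing that gave a test, namely Adra2a, Adra2c, Drd1a, Hrh3, Htr1f, Htr7, Npy1r and Sstr2. The other 11 lost it in at least 1. They were Adora2a, Adra1d, Adrb1, Adrb3, Chrm3, Drd5, Htr1a, Htr2c, Htr4, Htr5a and Npy2r, and all kept a log2 fold change above 0. Leaving out a single array also took the block out of the fit and left 1 array of that antibody, so no counts are given. Fewer receptor genes were called higher without the CPEB2 IgG array of experiment 2 or without either control IgG array. Fewer of all genes were called too, and the share among receptor genes was then close to that of all genes. Without the CPEB2 IgG array of experiment 1 the number of receptor genes called higher did not fall.

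**Figure D4:**
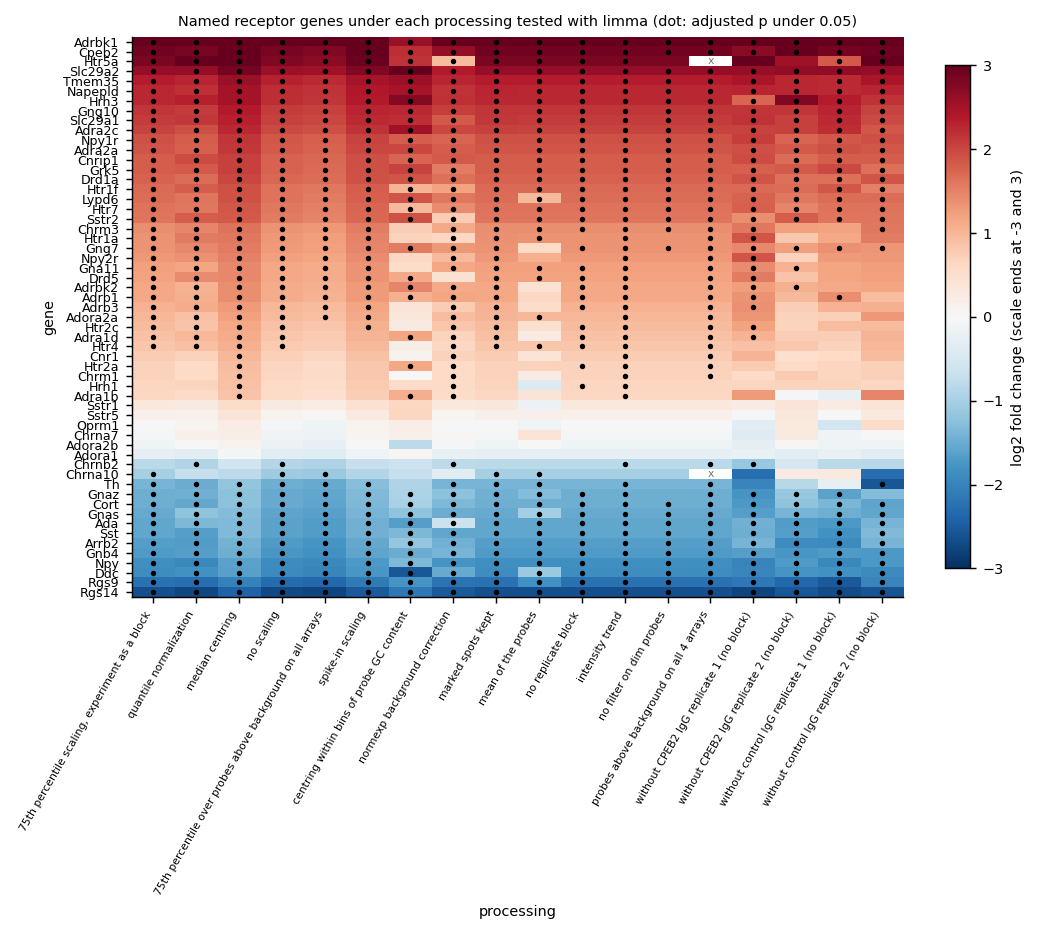
Log2 fold change (color) of genes named with values (vertical) under the processing used and 17 others (horizontal). They include the receptor genes that were called or passed the study thresholds. A dot marks a limma adjusted p under 0.05, and x marks a gene that was not tested. The receptor genes with a dot in every column are the 8 that kept the call, namely Adra2a, Adra2c, Drd1a, Hrh3, Htr1f, Htr7, Npy1r and Sstr2.

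For 20 of the 71 genes the array holds more than 1 probe, and the probe used was the brightest. In 7 genes the detected probes differed in sign, namely Adora2b, Adra1d, Chrm1, Chrna7, Hrh1, Htr2c and Sstr1. Of these Adra1d and Htr2c were called higher. The 3 Htr2c probes gave log2 fold changes of 0.94, 0.91 and -0.42, the Adra1d probes 0.89 and -0.38, and the Chrm1 probes 0.68 and -0.18. The Hrh1 probes spanned 0.65 to -1.87, the last of them with only the control IgG arrays above background. Chrna7 had -0.05 for the brighter probe and 0.88 for the dimmer one, Adora2b -0.13 and 0.17, and Sstr1 0.32 and -0.66.

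Where 2 detected probes lay on the same transcript, the probe nearer its end gave the higher log2 fold change in 9 of 11 receptor genes (81.8%), with a median difference of 0.98. Over all genes it did so in 3125 of 4185 (74.7%), with a median difference of 0.50. The later probe also had fewer G and C bases in 10 of the 11 and was brighter in 9 of the 11. Position, base content and brightness thus moved together, and their part in the difference was not tested. Adrb1 and Htr2c are shown because their call rests on the later probe. The first 30 bases of the earlier and the later probe, 5′ to 3′ as deposited, with G and C in capitals, read as follows.
Adrb1, earlier probe: CtCCttCttCtGCGaGCtCtGGaCttCGGt
Adrb1, later probe: GttGGaaGGCCattttGCaCaGtGttaGGC
Htr2c, earlier probe: tCtGGatttCaCtaGatGtGCtattttCaa
Htr2c, later probe: CGtGCaaCaGaCtGCCttatattatttCCt
The Adrb1 probes lie on the plus strand at chr19:56797242-56797301 and chr19:56799215-56799274 of mm9, from bases 380 and 2353 of the transcript, and hold 33 and 22 G or C among 60 bases. The log2 fold change was 0.06 for the earlier and 1.16 for the later Adrb1 probe. The Htr2c probes lie on the plus strand at chrX:143604149-143604208 and chrX:143631655-143631714, from bases 1076 and 4584, and hold 27 and 21 G or C. Their log2 fold changes were -0.42 and 0.94, and the earlier probe had signals of 57.4 and 36.7 with CPEB2 IgG against 111 and 36.5 with control IgG. A middle Htr2c probe, from base 2008 and also with 27 G or C, gave 0.91. With the mean of all detected probes in place of the brightest, Adra1d, Adrb1, Adrb3, Htr2c and Npy2r lost the call. Then 14 receptor genes and 3689 of all genes were called higher.

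**Figure D5:**
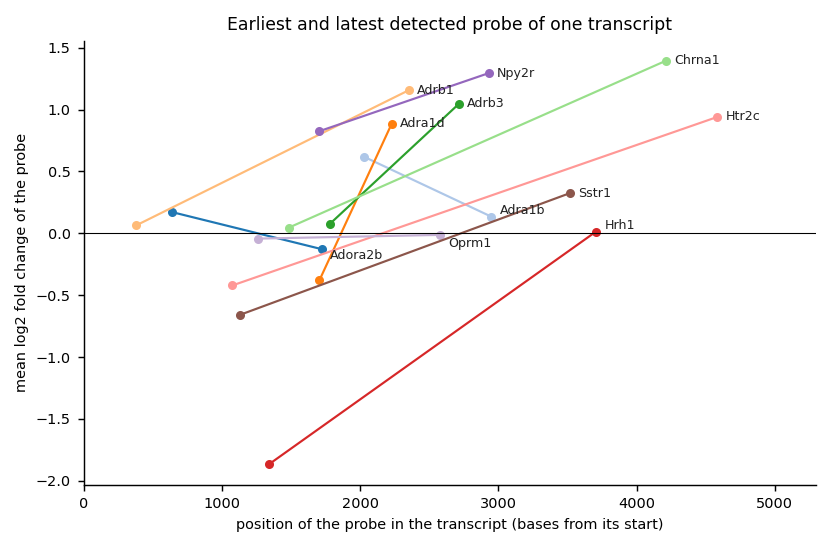
Mean log2 fold change (y axis) of the earliest and the latest detected probe of one transcript against their position from the transcript start (x axis, bases), for the 11 receptor genes with such a pair. The line climbs in 9 genes and falls in Adora2b and Adra1b.

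Across the 61 receptor genes, the G and C content of the probe and the log2 fold change had a Pearson correlation of -0.36, as over all 19698 genes (-0.36). These are correlations across genes, which share the same 4 arrays. In classes set after the values were seen, 15 of 29 receptor genes with a probe of up to 40% G and C were called higher (51.7%), against 32.3% of all genes with such a probe. From over 40% to 45% it was 2 of 19 (against 14.7% of all genes), and above 45% it was 2 of 13 (15.4%; 6.76% of all genes). Those last 2 were Adra2c and Hrh3. After centring within bins of probe G and C content 15 receptor genes and 4085 of all genes were called higher. Of the 15 receptor genes, 12 were among the 19. Adora2a, Adrb3, Chrm3, Htr1a, Htr2c, Htr4 and Npy2r lost the call, and Adra1b, Adra2b and Htr2a gained it. The median of the receptor genes was then 0.34 and that of all genes -0.04.

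The letters of the CPE, TTTTAT or TTTTAAT, were searched in the probes. They were found in the sense of the probe in 1 of the 95 receptor probes (1.05%), against 4.54% of all 55615 probes. On the other strand 9 receptor probes held them (9.47%; 6.51% of all probes), where they share letters with the polyadenylation signal AATAAA. The one sense match, in the Adora2a probe at chr10:74797461-74797520 (mm9, plus strand), is shown because it places CPE letters in the transcript of a called receptor, with the motif in capitals.
Adora2a: tgtttgtttgtgTTTTATtttccccctgag
A probe covers 60 bases of a transcript, and the rest of each transcript was not searched.

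The genes around the receptors were read from 5 fixed lists, and their shares can be set against 21.2% higher and 20.4% lower over all genes. Of 29 genes tested for transmitter synthesis, loading, reuptake and breakdown, 6 were higher and 6 lower, with a median log2 fold change of -0.12. The adenosine and nucleoside carriers Slc29a2 (2.64) and Slc29a1 (2.11) and the anandamide-forming enzyme Napepld (2.27) were higher. The monoamine-forming enzymes Ddc (-1.86) and Th (-1.41) and the adenosine-degrading enzyme Ada (-1.56) were lower. Th had signals of 1468 and 657 with CPEB2 IgG against 6130 and 1189 with control IgG, bright in experiment 1 of control IgG, and its call rested on the block (adjusted p = 0.0332, and 0.25 without it). It was the only gene called of the 4 tested markers of brainstem monoamine and cholinergic cell bodies. Of these markers Slc6a4 and Tph2, which define serotonin neurons, were not tested.

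Among the peptide ligands, calls had the opposite direction to those of Npy1r, Npy2r and Sstr2. Of 7 tested, none was higher and 3 were lower (1 and 4 without the block), with a median of -0.68. Npy had signals of 1019 and 844 with CPEB2 IgG against 3259 and 3627 with control IgG (log2 fold change -1.84, adjusted p = 0.00789), whereas its receptors Npy1r and Npy2r were called higher. Sst (-1.56) and Cort (-1.47), both ligands of somatostatin receptors, were also lower, and Sstr2 was higher. Not all receptors differed from their ligands in direction. Sstr3 (-0.59) and Sstr4 (-0.63) were negative like Sst and Cort, and they were not called. Npy5r, Sstr1 and Sstr5 were positive and not called either. Without the block Penk (0.67) was called higher and Pdyn (-0.68) lower.

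Among 28 heterotrimeric G protein subunits, 8 were higher and 7 lower, with a median of 0.10. Gng10 (2.15), Gng7 (1.34) and the Gq/11 class subunit Gna11 (1.22) were higher, and Gnb4 (-1.70), the Gs subunit Gnas (-1.52) and the Gi/o class subunit Gnaz (-1.45) were lower. Of 23 receptor kinases, arrestins and RGS proteins, which end G protein signals, 4 were higher and 8 lower, with a median of -0.63. The receptor kinases Adrbk1 (3.26), Grk5 (1.82) and Adrbk2 (1.16) were higher, and Rgs14 (-2.65), Rgs9 (-2.24) and the arrestin Arrb2 (-1.65) were lower. Adrbk1 had signals of 123345 and 178073 with CPEB2 IgG against 17003 and 15229 with control IgG. Of 8 accessory proteins, 5 were higher and none lower, with a median of 1.23. They included Tmem35 (2.35), a chaperone of nicotinic receptors, Cnrip1 (1.82), which binds Cnr1, and Lypd6 (1.68), a modulator of nicotinic receptors.

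Markers of other cells moved in both directions. Of 6 astrocyte markers 2 were higher and 3 lower, with a summed scaled signal of 126 to 149 with CPEB2 IgG against 467 to 552 with control IgG. Aldoc made up 92.1% and 92.6% of the control IgG sums, and without it the sum was 71.6 to 76.9 against 34.5 to 43.5, so that the direction turned. Of the markers left, Slc1a3 was the brightest with CPEB2 IgG (28729 and 26889 against 3302 and 2133 with control IgG). Aldh1l1 was the brightest with control IgG (1007 and 600 with CPEB2 IgG against 12652 and 9607). The sums thus hang on single genes and give no direction for the list. Neurons had 0 higher and 3 lower of 6, excitatory neurons 1 and 1 of 6, oligodendrocytes 0 and 3 of 6, microglia 1 and 3 of 6 and endothelial cells 1 and 1 of 5. Without the block oligodendrocytes had 0 and 1 and endothelial cells 1 and 0. Their part in the receptor values was not tested.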

How the data were processed

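RNA from CPEB2 IgG and control IgG RIP was labelled with Cy3 (0.2 µg) and hybridized to 4 Agilent mouse arrays. The deposited values are spot intensities, made by the authors with Agilent Feature Extraction 10.5.1.1, which corrects background but does not scale between arrays. The array annotation gives the probe coordinates on mm9. Control spots were left out, as were those with a non-uniformity or outlier mark, and 66 of 55681 probes without a value on every array were dropped. Processed signals were put on the log2 scale minus the 75th percentile of each array. The brightest probe above background on at least 2 arrays stood for a gene, and limma 3.58.1 (R 4.3.3) was fitted to 19698 genes using the experiment as blocking factor, and p-values were adjusted over all of them by Benjamini-Hochberg (threshold 0.05). The block follows from the divided lysate, and arrays of one experiment deviated together (correlation 0.203). The fit leaves 1 residual degree of freedom, and the number of arrays limits the precision. Scripts were tested on simulated data. The study's thresholds were applied without a test.

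Receptors and gene lists were chosen with earlier results of these data known. The genes named with values are receptors past either threshold, that with the brightest probe in each class, those with probes of unlike sign, Cpeb2 and, of each list, up to 3 called genes in each direction with the largest change. Marker genes and Chrna1, Chrna4, Chrna9, Pdyn, Penk, Sstr3, Sstr4, Tac1 and Ttr are named beside results they touch. All 71 receptor symbols matched RefSeq (GRCm38.p6), 1 under a newer symbol. A tested receptor and a marker gene enter the counts but are not reported here. Python 3.11.15 (numpy 2.4.6, pandas 2.3.3, scipy 1.17.1, matplotlib 3.10.9) was used for the rest. Alternatives changed the scaling, background correction, marked spots, probes, filter, variance prior, block, thresholds and arrays left out. CPEs of whole transcripts were not analysed here.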

Additional observations from a re-analysis of the deposited data

How the results depend on the processing

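The pairing of arrays by experiment decided some calls, among them the single lower call. With no replicate block 18 receptor genes were called higher and 0 lower (4260 and 3999 of all genes). Of the 18, 16 were among the 19. Adora2a, Htr1a and Npy2r lost the call, Hrh1 and Htr2a gained it, and Chrna10 lost its lower call. Receptor genes called lower were 0 after median centring (3301 of all genes), spike-in scaling (2595), centring by probe GC content (3942) and with no filter on dim probes (1837). They were 2 with no scaling (4557), normexp (4567) or the mean of the probes (4011), and 3 with an intensity trend (4681). Receptor genes called higher were 28 after median centring, where 5212 of all genes were. They were 25 with an intensity trend (4923 of all genes) and 22 with quantile normalization (4701). Normexp gave 24 (4966), and probes above background on all 4 arrays also gave 24 (4597). Spike-in scaling gave 17 (3899) and the percentile over probes detected on all arrays 16 (3824), against 19 (4174) as processed. With no filter on dim probes, 9 receptor genes were called higher, and of all genes 2265 were higher and 1837 lower. Spike-in scaling left 2595 genes lower. Higher calls were 50.9% of all calls, 61.2% after median centring (which shifted the median of all genes to 0.11) and 60% with spike-in scaling. The median log2 fold change of the receptor genes was 0.58 after median centring, 0.30 with no scaling, 0.24 with the percentile over probes detected on all arrays, 0.47 with spike-in scaling, 0.27 with normexp, 0.25 with the mean of the probes and 0.40 for probes above background on all 4 arrays. Leaving out 1 array, which also removed the block, gave 8 to 19 receptor genes higher, 0 to 3 lower and 2390 to 4251 genes of all lower. Leaving out an array or an experiment gave a median of 0.29 to 0.51. A raw signal above 2000 left 8 receptor genes (2542 of all genes) in place of 13 (3358 of all genes). A mean fold change above 2 also left 8 (2599 of all genes). Signs turned mostly in genes near 0 that were not called. Adora2b was 0.00845 with quantile normalization, 0.10 with median centring and 0.0211 with the mean of the probes. Chrna7 was 0.15, 0.18, 0.0738, 0.16, 0.0365 and 0.42 with quantile normalization, median centring, spike-in scaling, GC centring, normexp and the mean of the probes. Oprm1 was 0.0735, 0.21, 0.11, 0.19 and 0.00776 with the first 5 of these. Adora1 was 0.0522 with GC centring, and Hrh1 was -0.40 and Sstr1 -0.17 with the mean of the probes. With an array or experiment left out, Adra1b ranged from -0.22 to 1.46, Chrna10 from -2.29 to 0.28, Chrna7 from -0.43 to 0.33, Oprm1 from -0.86 to 0.84, Adora2b from -0.29 to 0.0307 and Sstr5 from -0.17 to 0.47. The causes were not tested. Signals near background limit Chrna10 and Htr5a.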
